A study of Oryza sativa with 8 samples.

Results

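The momilactone gene cluster of rice was examined in stems of the lines SM92 and SM, together with KSL8 and KSL10, a pair of related diterpene synthase genes outside the cluster. The 8 genes were taken by their MSU locus identifiers, and all 8 were found among the 55986 gene models of both deposited count tables. The cluster members were CPS4 (LOC_Os04g09900), KSL4 (LOC_Os04g10060), MAS1 (LOC_Os04g10000), MAS2 (LOC_Os04g10010), CYP99A2 (LOC_Os04g10160) and CYP99A3 (LOC_Os04g09920). KSL8 is LOC_Os11g28530 and KSL10 is LOC_Os12g30824. In the RefSeq gene table of assembly ASM3414082v1, 6 of the 8 names were listed, and the 5 of them on chromosome 4 ran in the same order along the chromosome as in the deposited tables.

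The submitters describe SM92 as tolerant and SM as susceptible to the yellow stem borer, a rice pest that bores into the stem as a caterpillar. The labels give no pedigree of either line. Larvae were put on tillers of field-grown plants at booting, and stem pieces from the attacked zone were taken at 72 hours, with uninfested plants of the same lines as controls. The labels give 4 groups of 2 samples, namely infested SM92, uninfested SM92, infested SM and uninfested SM. Each label names the count table of its line, so that 4 libraries belong to SM92 (Y3, Y4, Y7 and Y8) and 4 to SM (Y1, Y2, Y5 and Y6). The library names match neither an infestation state nor a replicate number, and infestation was not inferred from the values. SM92 was therefore compared with SM over all 8 libraries, and infestation and replicate cannot be told apart as sources of the spread among the libraries of a line.

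Momilactones are diterpenoid phytoalexins, which rice makes against fungi and releases from its roots against other plants. In the plastid, CPS4 cyclises geranylgeranyl diphosphate to syn-copalyl diphosphate, and KSL4 turns this into the hydrocarbon skeleton of the momilactones. The cytochromes P450 CYP99A2 and CYP99A3 oxidise the skeleton, and the dehydrogenases MAS1 and MAS2 act late, at the formation of momilactone A. KSL8 draws on the same syn-copalyl diphosphate to make the precursor of oryzalexin S, whereas KSL10 uses the ent form and leads to other oryzalexins. Genes of this pathway are known to be induced by fungal elicitors and by jasmonate.

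The libraries held between 50540724 and 57603629 fragments assigned to gene models, so that 1 fragment equals between 0.0174 and 0.0198 counts-per-million units (CPM). Libraries Y3 and Y4, Y7 and Y8, and Y5 and Y6 were nearly alike. Their counts differed by a chi-square per degree of freedom of 1.79, 1.58 and 2.98, which is above sampling noise, against 89.1 for Y1 and Y2 and 236 to 319 for the other pairs within a line. The labels do not say whether replicates came from separate plants. The p-values measure only the spread between these libraries, which may be technical, and are too small if the alike pairs share RNA. Results are therefore also given with the fragments of the 3 alike pairs summed, which leaves 2 SM92 and 3 SM libraries. Among 24892 gene models that passed a filter on low counts, edgeR's quasi-likelihood test called 9067, or 36.4%, different between SM92 and SM at an adjusted p under 0.05. With the alike pairs summed it called 9.41%.

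The 6 cluster members lay within 168.7 kb of chromosome 4 in the coordinates of MSU release 7. CPS4 opened the interval on the plus strand at chr4:5318060-5326427. It was followed on the minus strand by CYP99A3 at chr4:5332329-5334479, MAS1 at chr4:5380095-5381565, MAS2 at chr4:5385722-5387215 and KSL4 at chr4:5428338-5434028. CYP99A2 closed it on the plus strand at chr4:5484768-5486773. KSL8 spanned chr11:16435032-16449276 and KSL10 chr12:18509843-18528700, both on the minus strand. None of the 8 gene models overlapped another. MAS1 and MAS2 are close copies of each other, as are CYP99A2 and CYP99A3, and reads aligned to more than 1 place were not counted, so the values of these 4 genes are uncertain.

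Most of the pathway was close to the detection limit in these stems, and CYP99A2 was the exception. CYP99A2 collected 618 fragments over the 8 libraries, while the totals of the other 7 members lay between 18 and 49. CYP99A2 was also the only member with at least 10 fragments in every library, a level that 37.7% of all gene models reached. It was the only member to pass the filter, which 44.5% of gene models passed. At the other end, 20.2% of all gene models had no fragment in any library, and each of the 8 members had some.

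Per kb of gene span, CYP99A2 averaged 0.999 ± 0.627 CPM per kb (FPKM) in SM92 and 0.451 ± 0.203 FPKM in SM (SD, n = 4 each). Its range lay above that of every other member in both lines. In SM92 the level per kb then ran from CYP99A3 at 0.0706 ± 0.0846 FPKM through MAS1, MAS2, CPS4, KSL10 and KSL8 to KSL4 at 0.000840 ± 0.00168 FPKM (SD, n = 4). In SM it ran from MAS2 at 0.0604 ± 0.0208 FPKM through KSL4, MAS1, CYP99A3, KSL8 and KSL10 to CPS4 at 0.00107 ± 0.00124 FPKM (SD, n = 4). Below CYP99A2, the ranges of all neighbours in both orders overlapped. Averaged over all libraries, CYP99A2 exceeded 65.1% of gene models in FPKM, MAS2 50.1% and KSL10, the lowest, 33.8%. The order between genes depends on the span, which includes introns. It is 18858 bases for KSL10 and 14245 for KSL8, against 1494 for MAS2 and 2006 for CYP99A2. In fragments, KSL10 had more than MAS2, 32 against 26.

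**Figure D1:**
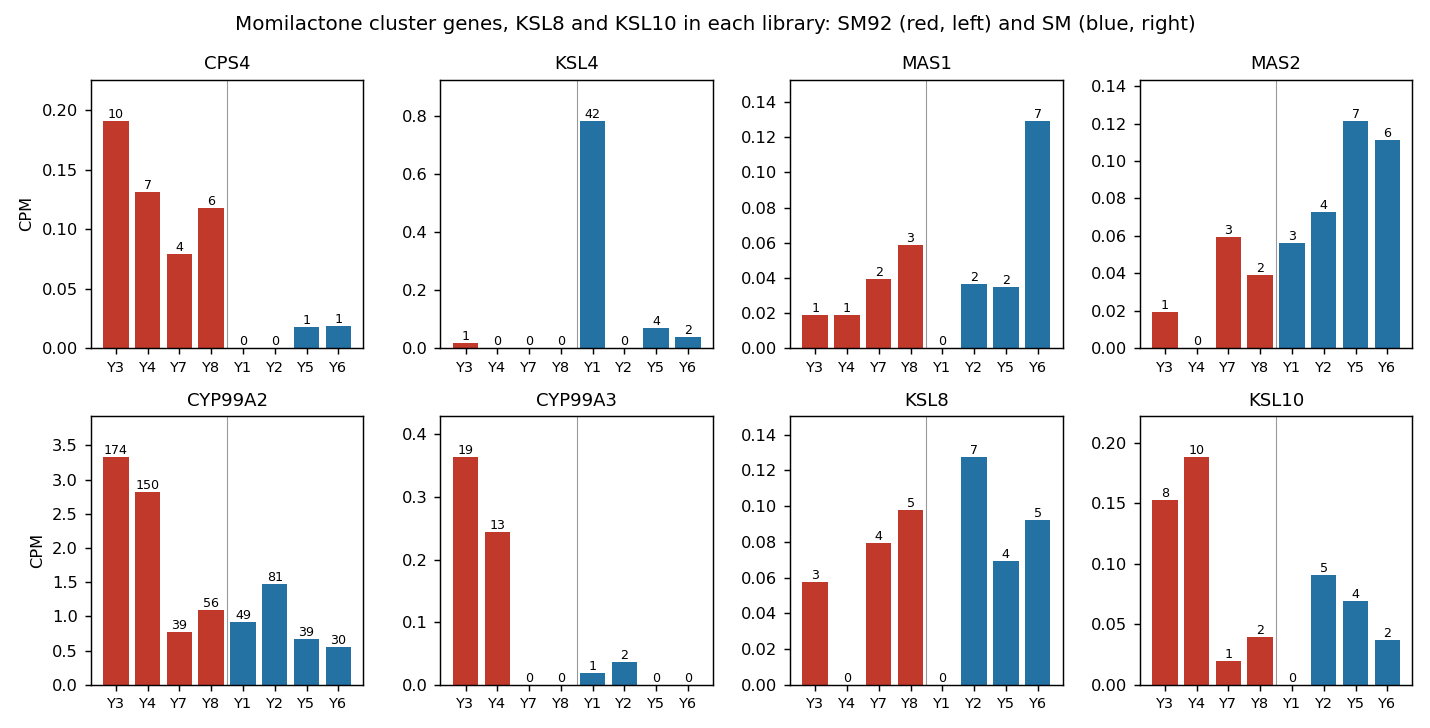
Level of each of the 8 genes in CPM (y axis, its own scale in each panel) in the 4 SM92 libraries (red) and the 4 SM libraries (blue), with the number of fragments printed on each bar. CYP99A2 is the only gene above 1 CPM, CPS4 is higher in all 4 SM92 libraries than in any SM library, and the 42 fragments of KSL4 in Y1 stand alone.

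CPS4 supplies the first committed step, and its fragments came almost wholly from SM92. The SM92 libraries Y3, Y4, Y7 and Y8 held 10, 7, 4 and 6 fragments of CPS4, and the SM libraries Y1, Y2, Y5 and Y6 held 0, 0, 1 and 1. Every SM92 library was thus above every SM library, a pattern with SM92 on top that 13.4% of the gene models with at least 10 fragments showed. Mean levels of CPS4 were 0.130 ± 0.0465 CPM in SM92 and 0.00896 ± 0.0104 CPM in SM (SD, n = 4 each). The summed rate in SM92 was 14.4 times that in SM, with an exact 95% interval from 3.61 to 125 that covers counting error only. The SM side rests on 2 fragments, and leaving out 1 library moved the ratio between 10.8, without Y2, and 21.7, without Y6.

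CPS4 did not pass the filter on low counts. In edgeR's quasi-likelihood test without that filter, the log2 fold change of CPS4 was 3.67 ± 0.74 (SE), with an adjusted p of 0.00712. CPS4 was the only 1 of the 8 members called by this fit, in which 4 of 8 had an unadjusted p under 0.05. No share of all gene models at an unadjusted p was computed, so such counts here and below show nothing particular to the genes listed. The fit called 21.1% of 44672 gene models in either direction and 9.68% as higher in SM92. With the alike libraries summed, the log2 fold change of CPS4 was 3.90 ± 1.12 (SE) with an adjusted p of 0.0845, and 6.64% of gene models were called.

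KSL4, the synthase that acts next, was read mainly in a single SM library. The SM92 libraries held 1 fragment of KSL4 in Y3 and 0 in Y4, Y7 and Y8. The SM libraries held 42 fragments in Y1, 0 in Y2, 4 in Y5 and 2 in Y6. Y1 stood at 0.783 CPM, with an exact 95% Poisson interval from 0.564 to 1.06 CPM, while the same interval for the 0 of Y2 reached 0.0671 CPM.

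The summed KSL4 rate in SM92 was 0.0222 times that in SM, with an exact 95% counting interval from 0.000550 to 0.130. Without Y1 the ratio was 0.134, with an interval from 0.00292 to 1.11. The log2 fold change without the filter was -4.84 ± 1.71 (SE), with an adjusted p of 0.0768 in edgeR's quasi-likelihood test. The adjusted p was 0.222 with the alike libraries summed. Without Y1, the log2 fold change was -2.29 ± 1.30 (SE) and the adjusted p 0.274. KSL4 passed the threshold in 3 of 16 alternatives, at an adjusted p of 0.0304 with DESeq2, 0.0333 with limma-voom and 0.0361 in edgeR's quasi-likelihood test without Y2. Without the filter, DESeq2 called 38% of the gene models that it tested and limma-voom 40%. CPS4 and KSL4 thus had their highest libraries in different lines, Y3 of SM92 and Y1 of SM. Whether these genes run opposite between the lines was not tested.

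CYP99A2 carried most of the fragments of the cluster. Its counts were 174, 150, 39 and 56 in the SM92 libraries Y3, Y4, Y7 and Y8, against 49, 81, 39 and 30 in the SM libraries Y1, Y2, Y5 and Y6. In CPM these were 3.33, 2.82, 0.772 and 1.10 in SM92, against 0.914, 1.47, 0.677 and 0.555 in SM. Y3 and Y4 stood above all other libraries, and Y7 and Y8 lay within the range of SM.

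The log2 fold change of CYP99A2 between SM92 and SM was 1.27 ± 0.50 (SE), with an adjusted p of 0.0790 in edgeR's quasi-likelihood test, which did not pass the threshold of 0.05. With the alike libraries summed, it was 1.15 ± 0.62 (SE) and the adjusted p was 0.306. The call turned on the method, since DESeq2 gave a log2 fold change of 1.28 ± 0.52 (SE) with an adjusted p of 0.0332 in a fit that called 44.2% of gene models. It also turned on single libraries, with adjusted p-values of 0.0412 without Y7 and 0.0490 without Y2 in edgeR's quasi-likelihood test. In the same test without the filter, these were 0.0514 and 0.0570. limma-voom with library weights moved the value itself, to 2.23 ± 0.28 (SE) with an adjusted p of 7.66e-05, in a fit that called 81.2% of gene models. Without the filter, limma-voom gave 1.61 ± 0.44 (SE) with an adjusted p of 0.0185, in a fit that called 40% of gene models.

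**Figure D2:**
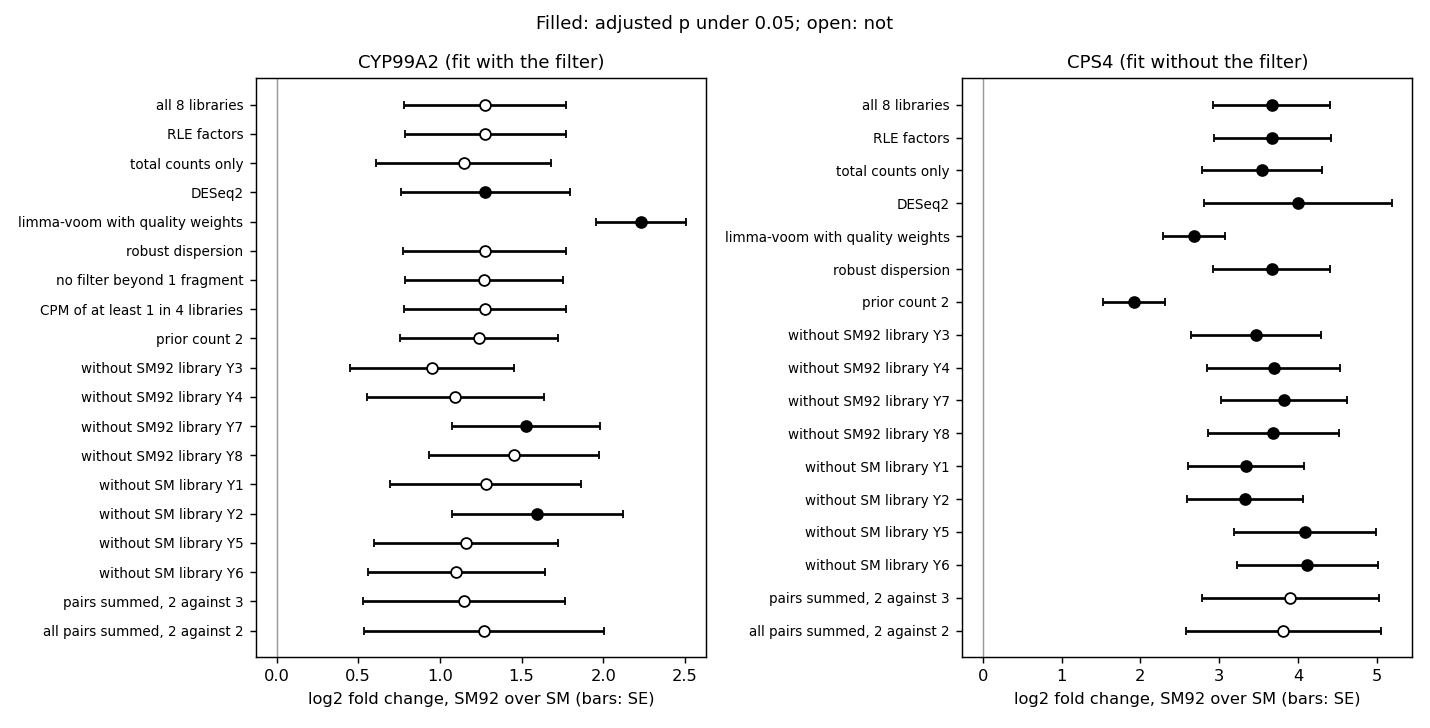
Log2 fold change of SM92 over SM (x axis, points with SE bars) for CYP99A2 and CPS4 in the fit of all 8 libraries and under each alternative (rows), filled where the adjusted p is under 0.05. Every point lies above 0, and the call of CPS4 is lost when the alike libraries are summed.

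Among tissue markers read beside these values, the summed cellulose synthases separated the lines, while the summed photosynthesis list overlapped between them. The summed level of 3 secondary wall cellulose synthases, which mark thickening stem cells, was 85.6 to 222 CPM in SM92 and 292 to 984 CPM in SM. All 3 were lower in SM92 at an adjusted p under 0.05 in edgeR's quasi-likelihood test, with a median log2 fold change of -2.20. Over all gene models tested, that test called 36.4%, and 9.41% with the alike libraries summed. None of the 3 was called with the alike libraries summed, where all 3 had an unadjusted p under 0.05. A list of 4 photosynthesis genes summed to 1196 to 1973 CPM in SM92 and 922 to 1557 CPM in SM, with 1 gene called higher and 1 called lower in SM92, and none with the alike libraries summed. No gene of either list was at 0. Y3 and Y4, the libraries with most CYP99A2, had the lowest cellulose synthase sums. They also had the highest photosynthesis sums, but LOC_Os12g19381 alone carried this. Without LOC_Os12g19381, the other 3 genes summed to 451 to 534 CPM in SM92 and 698 to 1155 CPM in SM, with the lowest sums in Y3 and Y4. The part of tissue make-up in the member values was not tested, and fewer cells of a type and less RNA per cell cannot be told apart in these bulk samples.

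CYP99A3, the partner P450 that oxidises the same skeleton, was read in 4 of 8 libraries. It had 19 and 13 fragments in the SM92 libraries Y3 and Y4 and 0 in Y7 and Y8, against 1 and 2 fragments in the SM libraries Y1 and Y2 and 0 in Y5 and Y6. Y3 and Y4 were above every SM library, and Y7 and Y8 were tied at 0 with Y5 and Y6. Mean levels were 0.152 ± 0.182 CPM in SM92 and 0.0138 ± 0.0175 CPM in SM (SD, n = 4 each). The log2 fold change in the fit without the filter was 3.36 ± 1.40 (SE), with an adjusted p of 0.128 in edgeR's quasi-likelihood test. With the alike libraries summed, it was 3.29 ± 1.66 (SE) and the adjusted p was 0.332. The SM92 rate was 11.3 times that in SM, and leaving out 1 library moved it between 6.17 times, without Y3, and 25.5 times, without Y2. CYP99A2 and CYP99A3, which lie toward opposite ends of the interval, were both highest in Y3 and Y4. These libraries are nearly alike, and their exact Poisson intervals overlapped for both genes, so their order is not a shared trait.

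MAS1 and MAS2, the late dehydrogenases, were spread thinly over both lines. MAS1 had 1, 1, 2 and 3 fragments in the SM92 libraries Y3, Y4, Y7 and Y8, against 0, 2, 2 and 7 in the SM libraries Y1, Y2, Y5 and Y6. MAS2 had 1, 0, 3 and 2 fragments in the same SM92 libraries, against 3, 4, 7 and 6 in the SM libraries. The lines overlapped for both genes, and for MAS2 only at 3 fragments in Y7 of SM92 and 3 in Y1 of SM.

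The MAS1 rate in SM92 was 0.677 times that in SM, with an exact 95% counting interval from 0.222 to 1.91. For MAS2 the ratio was 0.319, with an interval from 0.105 to 0.824. Neither gene was called in edgeR's quasi-likelihood test without the filter, where the adjusted p was 0.798 for MAS1 and 0.237 for MAS2. With the alike libraries summed, the adjusted p was 0.962 for MAS1 and 0.560 for MAS2. For MAS2, limma-voom gave an adjusted p of 0.0360. The MAS1 ratio turned to 1.40 without Y6. For MAS1 a difference was not detectable at this depth. For MAS2 the counting interval lay below 1 with all libraries, but reached 1.11 without Y4 and 1.02 without Y5, and the ratio was 0.211 without Y7. The MAS2 difference did not exceed the spread between libraries.

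**Figure D3:**
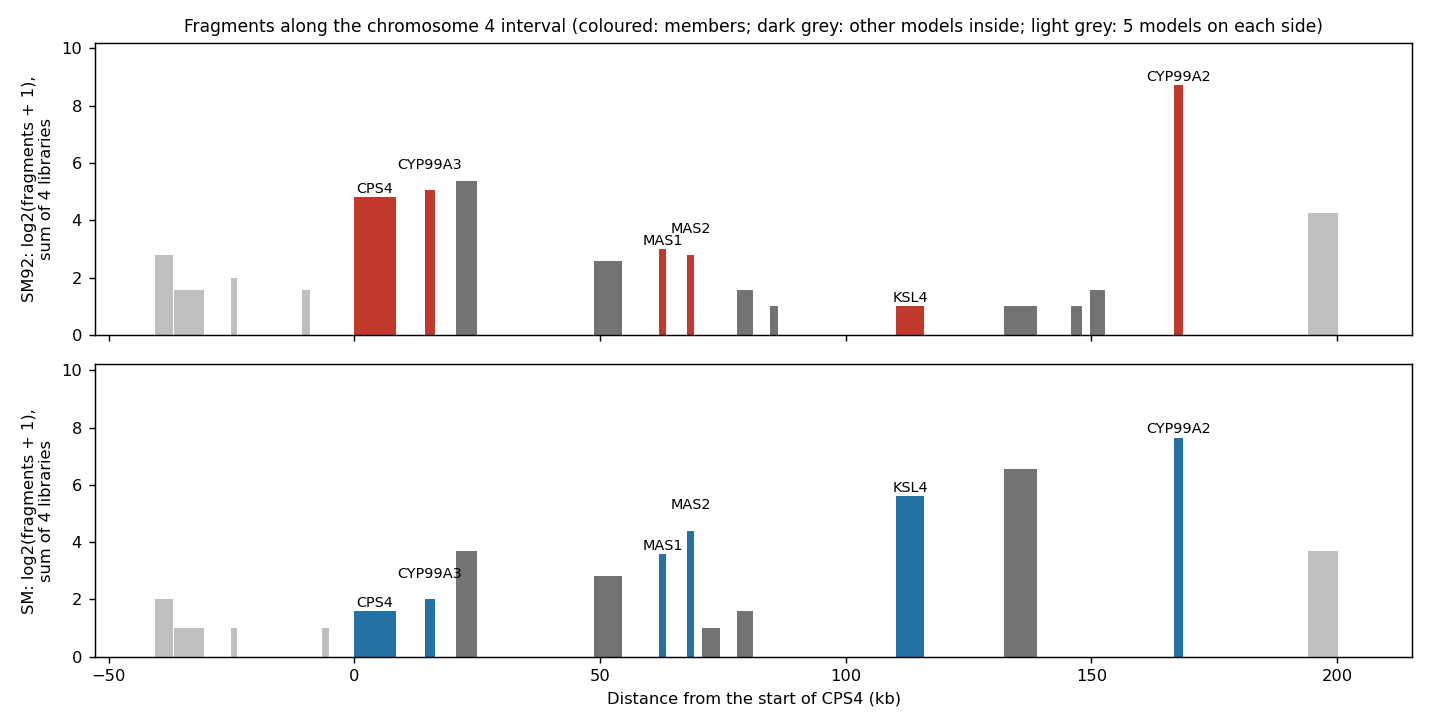
Fragments summed over the 4 SM92 libraries (upper panel) and the 4 SM libraries (lower panel) on a log2(fragments + 1) axis, against distance in kb from the start of CPS4. CYP99A2 at the right end is the highest bar in both panels, CPS4 and CYP99A3 at the left end are higher in SM92, and KSL4 and LOC_Os04g10100 between them are higher in SM.

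The cluster interval holds 26 gene models, of which 20 are not members. Of these 20, 12 had no fragment in any library, 5 had 1 to 9 and 3 had at least 10, while all 6 members had at least 10. Among the 5 gene models on each side of the interval, 4 of 10 had no fragment and 1 had at least 10. Over all gene models, 20.2% had no fragment in any library and 42.6% had fewer than 10 over the 8 libraries. Low counts were thus the rule among the models of this stretch of chromosome 4 that are not members.

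The gene model LOC_Os04g10100, which lies between KSL4 and CYP99A2 and to which the files give no name, was read almost wholly in SM. It had 0, 0, 1 and 0 fragments in the SM92 libraries Y3, Y4, Y7 and Y8, against 32, 52, 5 and 4 in the SM libraries Y1, Y2, Y5 and Y6. Its log2 fold change without the filter was -5.75 ± 1.28 (SE), with an adjusted p of 0.0112 in edgeR's quasi-likelihood test and of 0.0485 with the alike libraries summed. LOC_Os04g09930, next to CYP99A3, had 40 fragments in SM92 and 12 in SM. Its adjusted p was 0.0332 in the same test, and 0.207 with the alike libraries summed. The remaining model with at least 10 fragments, LOC_Os04g09980, had 5 in SM92 and 6 in SM.

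KSL8 diverts syn-copalyl diphosphate to another phytoalexin and showed no separation of the lines. It had 3, 0, 4 and 5 fragments in the SM92 libraries Y3, Y4, Y7 and Y8, against 0, 7, 4 and 5 in the SM libraries Y1, Y2, Y5 and Y6. Mean levels were 0.0587 ± 0.0425 CPM in SM92 and 0.0723 ± 0.0538 CPM in SM (SD, n = 4 each). The rate ratio of SM92 to SM was 0.798, with an exact 95% counting interval from 0.344 to 1.80. The adjusted p without the filter was 0.933 in edgeR's quasi-likelihood test, and 0.986 with the alike libraries summed. The ratio passed 1 without Y4, at 1.07, and without Y2, at 1.06. Of its direct neighbours, LOC_Os11g28520 had no fragment, and LOC_Os11g28540 had 55 fragments in SM92 and 9 in SM. The adjusted p of LOC_Os11g28540 without the filter was 0.0150 in edgeR's quasi-likelihood test, and 0.107 with the alike libraries summed.

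KSL10, the synthase on the ent branch, had 8, 10, 1 and 2 fragments in the SM92 libraries Y3, Y4, Y7 and Y8, against 0, 5, 4 and 2 in the SM libraries Y1, Y2, Y5 and Y6. Y3 and Y4 again held the highest values, and Y7 and Y8 lay within the range of SM. The rate ratio of SM92 to SM was 2.03, with an exact 95% counting interval from 0.936 to 4.66. The log2 fold change without the filter was 1.10 ± 0.86 (SE), with an adjusted p of 0.393 in edgeR's quasi-likelihood test. With the alike libraries summed, the adjusted p was 0.611. Both direct neighbours of KSL10 had no fragment in any library.

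The library with the highest level differed among the 8 genes. CPS4, CYP99A2 and CYP99A3 were highest in Y3 and KSL10 in Y4, all of SM92. KSL4 was highest in Y1, KSL8 in Y2, MAS2 in Y5 and MAS1 in Y6, all of SM. For KSL8, the 7 fragments of Y2 had an exact Poisson interval from 2.81 to 14.4, which holds the 5 of Y6 and Y8. For MAS2, the 7 of Y5 had the same interval, which holds the 6 of Y6. The 10 fragments of CPS4 in Y3 and the 10 of KSL10 in Y4 had an interval from 4.80 to 18.4. It holds the 7 of CPS4 in Y4 and the 8 of KSL10 in Y3. Whether the genes with few fragments share an order could therefore not be decided. Between Y1 and Y3, KSL4 and CYP99A2 ran in opposite directions beyond counting error. KSL4 had 42 fragments in Y1 and 1 in Y3, and CYP99A2 had 49 and 174. CYP99A2 made up 81.3% to 87.7% of the fragments of the 6 cluster members in SM92 libraries, against 51.6% to 91.0% in SM libraries. The lowest share, 51.6%, was that of Y1, where KSL4 held 42 fragments.

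Other diterpenoid genes gave the setting for these levels. A list of 10 loci of the chromosome 2 diterpenoid cluster, known for the phytocassanes, held 1 locus without any fragment and 3 that passed the filter. None of the 3 was called in edgeR's quasi-likelihood test, which called 36.4% of all gene models tested, and 2 had an unadjusted p under 0.05. DESeq2 called 2 of the 3 and limma-voom all 3, beside their shares of 44.2% and 81.2% over all gene models. With the alike libraries summed, 5 loci passed the filter and none was called, with 1 at an unadjusted p under 0.05. LOC_Os02g36140 was the most abundant, at 20.5, 20.5, 19.9 and 19.4 CPM in the SM92 libraries Y3, Y4, Y7 and Y8, against 32.8, 22.9, 31.2 and 30.5 CPM in the SM libraries Y1, Y2, Y5 and Y6.

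Some other loci of that list, LOC_Os02g36150, LOC_Os02g36190, LOC_Os02g36210 and LOC_Os02g36220, were highest in Y3 and Y4. The rest, with few fragments, were not. LOC_Os02g36110 was highest in Y2, at 0.0546 CPM, with 0 in Y3 and Y4. Y2 exceeded Y3 in LOC_Os02g36030 and LOC_Os02g36070, and Y5 exceeded Y4 in LOC_Os02g36264. LOC_Os02g36280 had no fragment. LOC_Os02g36210 stood at 3.63, 3.13, 0.0198 and 0.0393 CPM in the SM92 libraries Y3, Y4, Y7 and Y8, against 0.0373, 0.182, 0 and 0.0370 CPM in the SM libraries Y1, Y2, Y5 and Y6. LOC_Os02g36150 stood at 3.40, 3.51, 0.257 and 0.255 CPM in SM92, against 0.336, 0.709, 0.0868 and 0.166 CPM in SM. Both followed the order of CYP99A2 in that Y3 and Y4 were highest and Y2 was the highest SM library. Both were picked after their values were seen, and whether the clusters share an order was not tested.

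**Figure D4:**
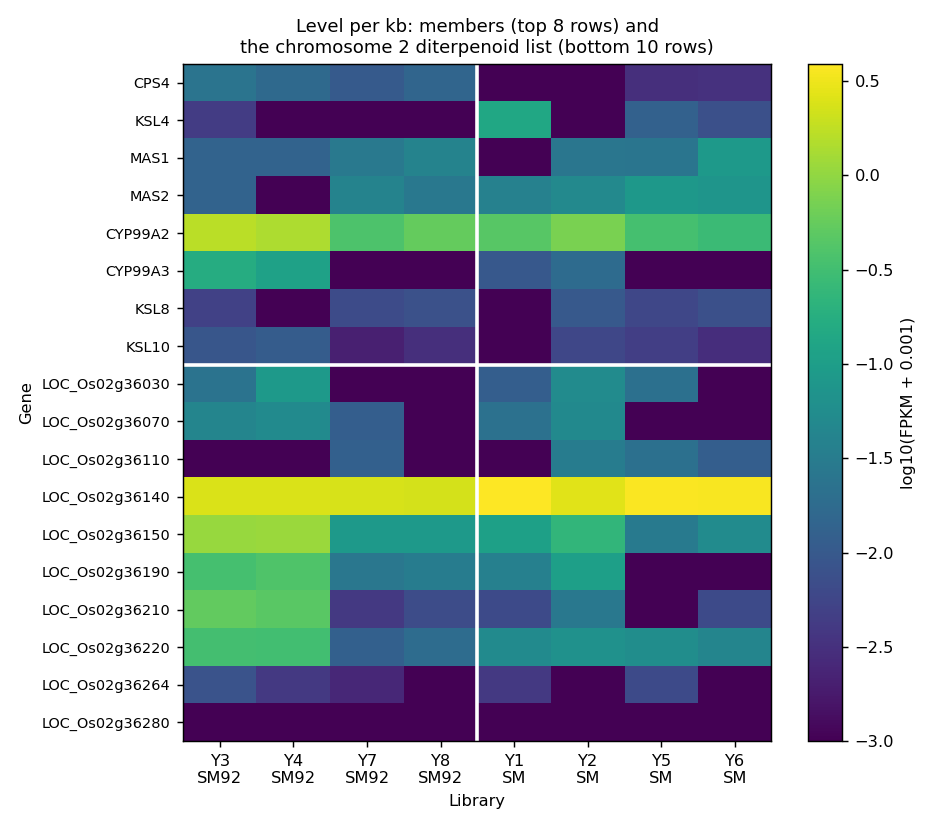
Level per kb of the 8 genes (upper rows) and of the 10 loci of the chromosome 2 list (lower rows) in each library (columns, SM92 left of SM), coloured by log10(FPKM + 0.001), the darkest colour marking 0. CYP99A2 and LOC_Os02g36140 are bright in all columns, and several loci of both clusters are brightest in Y3 and Y4.

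The steps that feed the pathway, those of plastid isoprenoid supply, were abundant in both lines as a sum. The 10 loci of plastid isoprenoid supply, which make geranylgeranyl diphosphate, summed to 512 to 623 CPM in SM92 libraries and 439 to 561 CPM in SM libraries. Of the 10, 2 were called higher and 1 lower in SM92 by edgeR's quasi-likelihood test, which called 36.4% of all gene models tested. Their median log2 fold change was 0.23, against 0.00287 over all gene models tested. None of the 10 was called with the alike libraries summed, where 3 had an unadjusted p under 0.05. The 4 loci of the first gibberellin steps, which use the ent branch, summed to 408 to 507 CPM in SM92 and 202 to 364 CPM in SM. Of these 4, 2 were called higher and 1 lower in SM92, beside the same 36.4%, with a median log2 fold change of 0.78. With the alike libraries summed 1 was called, as lower, beside 9.41% of all gene models tested. This was LOC_Os06g37330, at an adjusted p of 0.0210 in edgeR's quasi-likelihood test. LOC_Os06g37330 was not abundant, with 3, 6, 2 and 1 fragments in the SM92 libraries Y3, Y4, Y7 and Y8. The SM libraries Y1, Y2, Y5 and Y6 held 80, 78, 52 and 59. The 6 cluster members together reached 0.950 to 3.94 CPM in SM92 and 0.851 to 1.77 CPM in SM.

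The pattern of CYP99A2 was the only cluster pattern strong enough to be matched against other genes. Among 20927 genes with a mean of at least 1 CPM, LOC_Os02g53160 was nearest, at a root-mean-square difference of 0.132 between standardised log2(CPM + 1) profiles over the 8 libraries. The 5 nearest genes lay on chromosomes 2, 3, 7 and 8, and none of them on chromosome 4. LOC_Os02g36150 of the chromosome 2 list ranked 58 and LOC_Os02g36220 ranked 716, while LOC_Os02g36140 ranked 16529. These distances rest on 8 libraries, of which 3 pairs are nearly alike.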

How the data were processed

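Ribosomal-RNA-depleted, stranded total RNA libraries were sequenced, per the labels' protocols. The authors used featureCounts 2.0.0 with strand option 2 to assign read pairs to MSU release 7 models over the whole gene span, introns included, per the file headers. The deposited values are raw counts, not normalized. Trim Galore, STAR and DESeq2 are listed in the submitters' processing notes. The position and length columns deposited by the authors, of unit other, give the span in bases.

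The 8 genes and all lists were chosen with earlier results of these data known. Columns were assigned to lines only, so the 5 planned contrasts of infestation were not run. SM92 was compared with SM in edgeR 4.0.16 (R 4.3.3; TMM, filterByExpr, glmQLFit, Benjamini-Hochberg over all genes; prior count 0.125), tested on simulated data first. The simulation drew independent libraries and changed only genes with many fragments, in the fit with the filter. It did not cover genes with few fragments, the fit without the filter or nearly alike libraries. SEs were derived from the F statistic. DESeq2 1.42.0 and limma 3.58.1 were alternatives. CPM used total counts, and FPKM used the gene span. Rate ratios carry exact 95% conditional binomial intervals and library counts exact Poisson intervals, for counting error only; fragments lacked molecular identifiers. Genes were named by role, by position, by list, or by nearest profile; from the lists, loci were picked after their values were seen. No sequences were printed.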

Additional observations from a re-analysis of the deposited data

Results flagged for a closer look

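Among the 8 genes, only KSL4 had a library set apart from the others of its line by Dixon's ratio. In SM, Y1 stood at 0.783 CPM, and the gap to the next library was 0.911 of the range of the 4 libraries. This is above Dixon's 95% limit. That limit assumes independent, normally distributed values, whereas these are low counts with nearly alike libraries, so its 5% rate need not hold here. In SM92, Y3 stood at 0.0191 CPM, which is 1 fragment, and the other 3 libraries at 0. The ratio is then 1 whatever the spread, and the exact Poisson limit of each 0 reaches 3.69 fragments, so Y3 does not differ from the others beyond counting error. Of 16 groups examined (8 genes in 2 lines), these 2 passed. Y1 is not one of the nearly alike libraries, and no cause was tested.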

How the results depend on the processing

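No paired analysis was possible because no replicate number is tied to any library. The 5 contrasts of infestation and their alternatives were not run. The number of gene models called between SM92 and SM was 9067 in the fit of all 8 libraries. It was 20203 with limma-voom. With the alike libraries summed it was 2591, and 697 with Y1 and Y2 also summed; both of these settings were chosen after seeing the data. Leaving out 1 library gave 7366 to 9728. Scaling by total counts called 2959 higher and 6268 lower in SM92, against 4152 and 4915 with TMM, and moved the median log2 fold change of all genes to -0.16.

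The log2 fold change of CYP99A2 stayed positive in all 18 alternatives, from 0.95 to 2.23, with adjusted p-values from 7.66e-05 to 0.400; leaving out 1 library gave 0.95 to 1.60. CPS4, in edgeR's fit without the filter, stayed positive in all 16, from 1.92 with a prior count of 2 to 4.11. Its call was lost in the 2 summed fits (adjusted p 0.0845 and 0.259). KSL4 was called lower in SM92 in 3 of 16, with DESeq2, with limma-voom and without Y2, at adjusted p-values of 0.0304, 0.0333 and 0.0361. MAS2 was called lower in 1 of 16, with limma-voom, at an adjusted p of 0.0360. MAS1 ranged from -0.77 to 0.63 when 1 library was left out and changed sign without Y6. KSL8 ranged from -0.52 to 0.31 and changed sign without Y4, Y2 or Y6, to 0.31, 0.27 and 0.021. The causes were not tested. CYP99A3 and KSL10 kept their direction and were not called in any of 16. Of the 5 nearest profiles, 2 were the same with a pseudocount of 0.25. At fewer than 50 fragments a gene, counting error is wide for all members except CYP99A2. For CPS4, KSL4, CYP99A3 and MAS2, the exact counting interval of the rate ratio with all libraries did not hold 1. The spread between libraries, which that interval leaves out, limits these genes as well.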
